A study of Mus musculus with 12 samples.

Results

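The xenobiotic cytochrome P450 genes of families 1 to 3 were examined in mouse liver. Members were all protein-coding genes whose symbol is Cyp followed by the family number 1, 2 or 3, a subfamily letter and a gene number; 1 gene of subfamily 2d was left out. This gave 57 genes in 16 subfamilies, of 55471 gene identifiers in the count table. Of these, 41 had enough counts to be tested among 13866 genes, 8 had only a few counts (at most 69 over all libraries) and 8 had no count in any library. The study sequenced RNA from livers of C57BL/6 mice in 4 groups of 3 samples: a standard diet (SD), a diet that models metabolic dysfunction-associated steatotic liver disease (MASLD), and the MASLD diet with Aza-TdC at a dose labelled 0.1x or 1x. Aza-TdC is a deoxycytidine analogue that depletes the DNA methyltransferase DNMT1, and the labels give no absolute dose, sex, age or feeding time. All livers of the 3 groups other than SD came from the MASLD diet, and both treated groups were compared with the same 3 untreated MASLD livers. The labels do not say whether a sample was 1 animal, so p-values measure the spread between samples, which may in part be technical.

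Cytochrome P450 enzymes of families 1 to 3 sit in the endoplasmic reticulum of hepatocytes, where they oxidize drugs, pollutants, steroids and fatty acids with electrons passed on by P450 oxidoreductase. Many are densest around the central vein. Family 1 is classically induced through the aryl hydrocarbon receptor AHR, subfamily 2b through the nuclear receptor CAR and subfamily 3a through PXR, and several members of subfamilies 2a, 2b and 2c differ between male and female mice.

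Libraries held 30213048 to 41852606 counts assigned to genes. Levels are given as CPM, the count per 1000000 counts of the TMM-scaled library, differences as the log2 fold change of an edgeR quasi-likelihood fit over all 12 libraries with its standard error (SE), and a gene was called where the Benjamini-Hochberg adjusted p over all 13866 genes was under 0.05. The 20 hepatocyte markers summed to 126900 to 249700 CPM over the libraries, which all held high levels of them, and T and B cell markers to 3.34 to 16.6 CPM. On the MASLD diet 17 of the 20 hepatocyte markers fell, from 238200 to 249700 CPM in SD to 126900 to 151500 CPM in MASLD. In the same comparison 7 of 10 tested cholangiocyte markers, 14 of 16 Kupffer cell and macrophage markers, 10 of 13 stellate cell markers and 6 of 12 sinusoidal endothelial markers rose. Cholangiocyte markers summed to 29.4 to 40.9 CPM in SD, 64.9 to 185.3 CPM in MASLD, 48.3 to 64.7 CPM at 0.1x and 36.1 to 45.4 CPM at 1x. Macrophage markers summed to 211.7 to 320.7 CPM in SD, 408 to 609 CPM in MASLD, 504 to 578 CPM at 0.1x and 239.9 to 408.5 CPM at 1x. No tested marker of these lists was at 0 in a whole group. The part of these cells in the P450 results was not tested, and in whole liver fewer hepatocytes and less RNA per hepatocyte cannot be told apart.

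Per kilobase of transcript, the level over all libraries was highest for Cyp2e1, which oxidizes ethanol and small solvents, at 5205 CPM per kb. Cyp3a11, the main drug-oxidizing 3a enzyme of mouse liver, followed at 1228, then Cyp2d26 at 621, Cyp2d10 at 602, Cyp2f2 at 560 and Cyp2a5 at 457 CPM per kb. Together the members made up 2.63% ± 0.360 of the counts in SD livers (± is the standard deviation over samples, n = 3), 1.99% ± 0.0555 in MASLD livers, 2.22% ± 0.133 with 0.1x and 2.21% ± 0.187 with 1x. Cyp2e1 alone held 35.0% ± 3.01 of the members' summed CPM in SD livers, 42.1% ± 1.70 in MASLD livers, 43.3% ± 1.14 with 0.1x and 48.0% ± 4.92 with 1x (n = 3 each).

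On the MASLD diet most of the members fell. Between MASLD and SD, 23 of 41 tested members were lower and 4 were higher, while over all genes tested 29.5% were called, 13.9% lower and 15.6% higher. The median log2 fold change of the members was -0.67, against 0.03 over all genes. The 20 hepatocyte markers had a median of -0.82 in the same comparison, so a fall of this size was not particular to the members. Of the 22 members with a mean of at least 100 CPM, 17 fell and 2 rose. Of the 8 with a mean of 5 to 100 CPM 2 fell and 1 rose, and of the 11 under 5 CPM 4 fell and 1 rose. Whether the share that fell depends on the level was not tested. The 4 genes that rose were Cyp2a4 and Cyp2a22 of subfamily 2a and Cyp2c38 and Cyp2c39 of subfamily 2c. The other tested members of these subfamilies fell or did not pass. Leaving out 1 library at a time left 22 to 26 members called. Over all genes it left 2654 to 3850 called, against 4085 with all libraries.

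**Figure D1:**
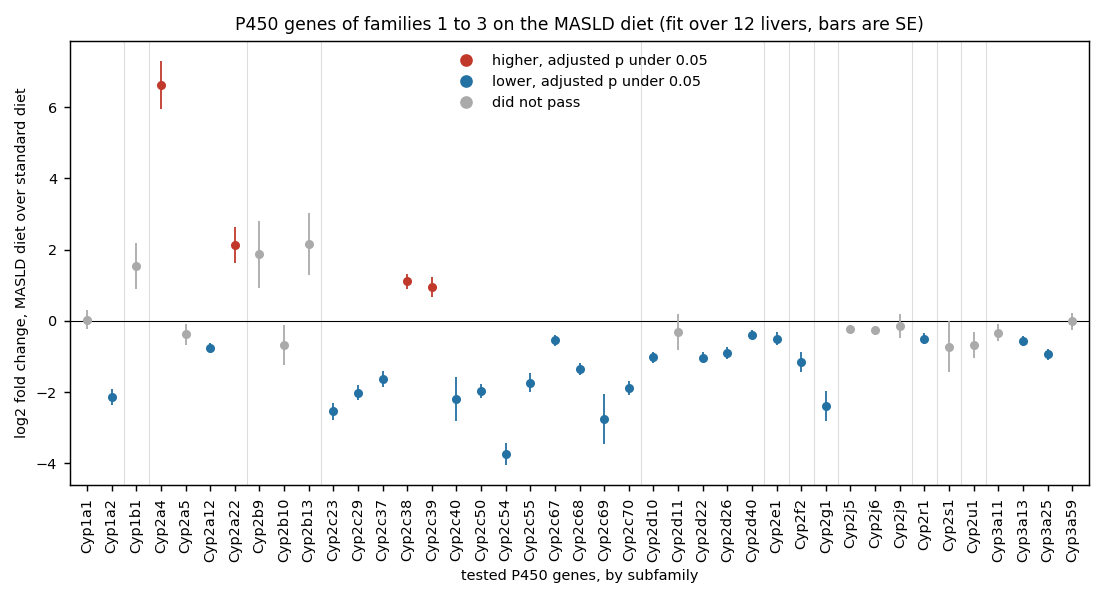
Log2 fold change between MASLD and SD livers (vertical axis) for each of the 41 tested members, ordered by subfamily, with SE bars from the fit over 12 libraries. Colours mark the 23 members that were lower and the 4 that were higher at an adjusted p under 0.05; Cyp2a4 stands at 6.61 and Cyp2c54 at -3.73.

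Subfamily 1a holds Cyp1a2, which oxidizes caffeine and aromatic amines, and Cyp1a1, its inducible partner; Cyp1b1 is mostly expressed outside hepatocytes. Cyp1a2 (ENSMUSG00000032310, mm10 chr9:57676937-57683703) stood at 1112, 1117 and 1098 CPM in the SD samples 3, 4 and 5. It stood at 279, 234 and 243 CPM in the MASLD samples 3, 4 and 5. At 0.1x it was 426, 219 and 370.2 CPM in samples 1, 3 and 4, and at 1x 242, 309 and 402 CPM in samples 2, 4 and 5. The SD livers were nearly level and lay above all 9 livers of the MASLD diet. Cyp1a2 fell 4.40-fold on the diet (log2 fold change -2.14, SE 0.22, adjusted p = 7.47e-06) and passed in neither dose comparison with MASLD (0.43, SE 0.21, adjusted p = 0.183 and 0.33, SE 0.21, adjusted p = 0.463).

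Cyp1a1 was low in every liver. Its levels were 1.36, 1.68 and 1.95 CPM in SD, 1.72, 1.74 and 1.64 CPM in MASLD, 1.43, 2.16 and 2.33 CPM at 0.1x and 1.05, 0.672 and 0.74 CPM at 1x. All 1x livers lay below all others. Between the doses Cyp1a1 was lower at 1x than at 0.1x (log2 fold change -1.25, SE 0.27, adjusted p = 0.0135). The 1x value was -1.04 against MASLD (SE 0.27, adjusted p = 0.0523) and -1.01 against SD (SE 0.28, adjusted p = 0.0185). Cyp1b1 stayed under 1.5 CPM in every library and passed in no comparison. Of subfamily 1a, then, the abundant gene fell on the diet, and the scarce gene was lower at 1x than at 0.1x or in SD.

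**Figure D2:**
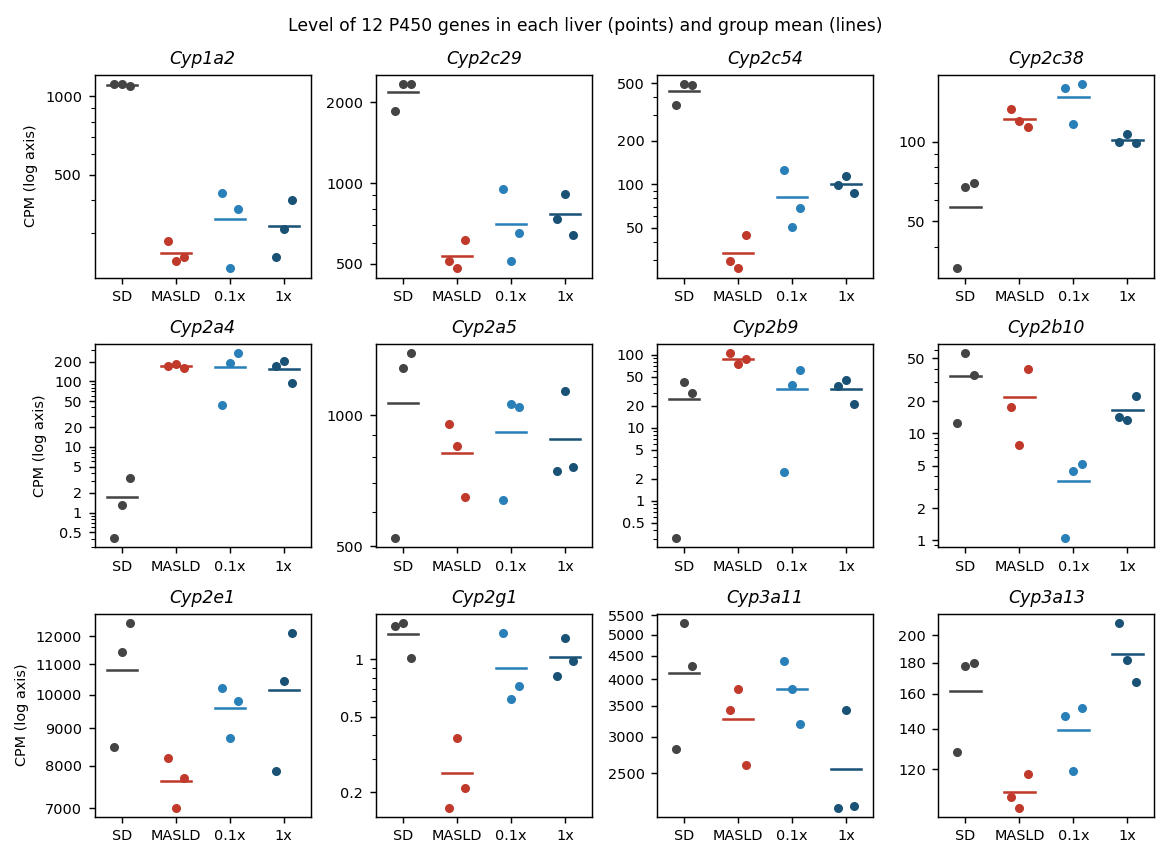
Level in CPM (vertical log axis, a separate scale per panel) of 12 members in each of the 12 livers, with points for libraries and lines for group means. Cyp2a4 lies under 3.5 CPM in the 3 SD livers and above 40 CPM in the other 9, and Cyp2b9 is lowest in SD sample 3 (0.307 CPM) and 0.1x sample 1 (2.51 CPM).

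Subfamily 2a held the member with the largest change. Cyp2a4, a steroid hydroxylase with higher levels in female than male mice, and Cyp2a5, which oxidizes coumarin and nicotine, lie on the same strand of chromosome 7, with other P450 genes between them and nearly the same sequence upstream. The stretches shared by both RefSeq promoter windows (GRCm38.p6, both on the + strand, 5′ to 3′, Cyp2a4 at chr7:26306943-26307158 and Cyp2a5 at chr7:26835089-26835304) are shown because Cyp2a4 rose on the diet and Cyp2a5 did not pass. Capitals mark the 4 of 216 aligned bases that differ.
Cyp2a4: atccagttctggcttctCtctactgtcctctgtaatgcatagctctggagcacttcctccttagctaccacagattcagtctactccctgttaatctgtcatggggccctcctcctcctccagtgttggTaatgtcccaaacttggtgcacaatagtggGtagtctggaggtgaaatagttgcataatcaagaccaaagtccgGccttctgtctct
Cyp2a5: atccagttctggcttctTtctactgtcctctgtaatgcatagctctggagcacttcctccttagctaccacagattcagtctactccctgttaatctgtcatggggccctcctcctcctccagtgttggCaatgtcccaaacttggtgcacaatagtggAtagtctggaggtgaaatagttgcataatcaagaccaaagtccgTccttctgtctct

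Cyp2a4 (ENSMUSG00000074254, mm10 chr7:26307169-26315088) stood at 0.409, 1.30 and 3.40 CPM in SD and at 173, 183 and 157 CPM in MASLD. At 0.1x it was 44.0, 188 and 267 CPM, and at 1x 168, 204 and 93.5 CPM. Every liver of the MASLD diet was above every SD liver, and 0.1x sample 1 was the lowest of the 9. Cyp2a4 rose 97.9-fold on the diet (log2 fold change 6.61, SE 0.68, adjusted p = 8.01e-06) and did not pass between either dose and MASLD. The size of the rise depends on the low SD counts: the log2 fold change was 7.62 without SD sample 5 and 6.17 without SD sample 3, and the call was kept in both. Cyp2a5 was 522, 1286 and 1390 CPM in SD, 956, 850.4 and 650.1 CPM in MASLD, 638, 1062 and 1045 CPM at 0.1x and 744, 1140 and 760.2 CPM at 1x. Its groups overlapped, and it passed in none of the 6 comparisons (MASLD against SD -0.38, SE 0.30, adjusted p = 0.369); without SD sample 3 the diet value was -0.71 (adjusted p = 0.036). The share of Cyp2a4 in the counts of the pair went from 0.141% ± 0.0899 in SD to 17.5% ± 2.10 in MASLD, with 13.9% ± 7.003 at 0.1x and 14.9% ± 3.77 at 1x (n = 3 each). Of 150-base windows of the Cyp2a4 transcripts, 4.22% occur in other genes, with Cyp2a5 the closest.

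The other pair of the subfamily split in the same comparison. Cyp2a22 was 0.682, 4.62 and 4.36 CPM in SD, 20.8, 13.5 and 8.35 CPM in MASLD, 4.25, 8.35 and 12.2 CPM at 0.1x and 4.23, 5.88 and 3.59 CPM at 1x. All MASLD livers lay above all SD livers, and the treated livers overlapped SD. It rose on the diet (log2 fold change 2.13, SE 0.50, adjusted p = 0.00575). Cyp2a12, a steroid hydroxylase of mouse liver, fell (log2 fold change -0.76, SE 0.14, adjusted p = 0.000905), from 689 to 866 CPM in SD to 449 to 486 CPM in MASLD.

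Subfamily 2b holds Cyp2b10, the standard target of CAR, and Cyp2b9 and Cyp2b13, which are female-biased in mouse liver. Cyp2b10 (ENSMUSG00000030483, mm10 chr7:25897620-25926624) was 12.4, 55.9 and 35.0 CPM in SD and 17.6, 7.77 and 39.8 CPM in MASLD, which overlapped. At 0.1x it was 1.05, 4.47 and 5.18 CPM, below all other livers, and at 1x 14.1, 13.4 and 22.3 CPM. It fell at 0.1x against MASLD (log2 fold change -2.61, SE 0.63, adjusted p = 0.0187) and against SD (-3.27, SE 0.64, adjusted p = 0.00244), and it was higher at 1x than at 0.1x (2.22, SE 0.62, adjusted p = 0.0324). At 1x against MASLD the value was -0.39 (SE 0.56, adjusted p = 0.811). The call against MASLD was lost without MASLD sample 5 (-1.83, adjusted p = 0.0838) and without 0.1x sample 1 (-2.17, adjusted p = 0.0529). The call between doses was lost without 0.1x sample 1 (1.78, adjusted p = 0.0914), 0.1x sample 3 (2.42, adjusted p = 0.0578), 1x sample 2 (2.32, adjusted p = 0.0923) or 1x sample 5 (1.95, adjusted p = 0.0926).

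The 250 bases upstream of Cyp2b9 (chr7:26173159-26173408) and Cyp2b13 (chr7:26061245-26061494, both + strand, RefSeq, GRCm38.p6) are shown because these genes were low in the same 2 livers. Capitals mark the 2 bases that differ.
Cyp2b9: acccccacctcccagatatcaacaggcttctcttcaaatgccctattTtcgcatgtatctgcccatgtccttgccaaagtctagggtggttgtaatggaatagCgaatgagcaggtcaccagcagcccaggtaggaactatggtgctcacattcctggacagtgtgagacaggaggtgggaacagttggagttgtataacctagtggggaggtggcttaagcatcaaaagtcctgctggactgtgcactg
Cyp2b13: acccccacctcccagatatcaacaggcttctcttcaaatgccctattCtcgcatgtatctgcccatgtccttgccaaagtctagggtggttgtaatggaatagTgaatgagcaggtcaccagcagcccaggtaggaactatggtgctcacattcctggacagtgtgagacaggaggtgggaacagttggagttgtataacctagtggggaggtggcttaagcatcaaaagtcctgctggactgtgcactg

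Cyp2b9 was 0.307, 43.1 and 30.04 CPM in SD and 105.5, 74.1 and 88.3 CPM in MASLD. At 0.1x it was 2.51, 38.9 and 61.9 CPM, and at 1x 37.0, 44.7 and 21.4 CPM. SD sample 3 and 0.1x sample 1 were far below the other livers of their groups, and all MASLD livers were above all others. Cyp2b13 was scarcer, with the same 2 livers lowest in their groups: 0.0341, 1.36 and 0.407 CPM in SD, 2.84, 2.80 and 2.49 CPM in MASLD, 0, 0.801 and 2.46 CPM at 0.1x, and 0.568, 0.792 and 0.872 CPM at 1x. Neither passed in any comparison (MASLD against SD 1.86, SE 0.94, adjusted p = 0.15 and 2.16, SE 0.87, adjusted p = 0.0736). Without SD sample 3 and 0.1x sample 1 together, an alternative chosen after seeing the data, both were called higher in MASLD than SD (1.28, adjusted p = 0.00575 and 1.62, adjusted p = 0.0276) and lower at 1x than in MASLD (-1.38, adjusted p = 0.011 and -1.86, adjusted p = 0.0293). Without SD sample 4 alone, Cyp2b13 was called on the diet (3.53, adjusted p = 0.0271).

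Subfamily 2c, the largest, holds enzymes that oxidize arachidonic acid and other fatty acids, steroids and drugs. All 13 tested members were called on the diet, 11 lower and 2 higher, and the sum of the subfamily fell from 5987 ± 482 CPM in SD to 1709 ± 194 CPM in MASLD (n = 3 each, log2 fold change -1.81, SE 0.19, adjusted p = 7.92e-06). Cyp2c54 (ENSMUSG00000067225, mm10 chr19:40037940-40073827) fell most. It was 354, 495 and 485 CPM in SD and 29.3, 26.2 and 44.8 CPM in MASLD. At 0.1x it was 125.5, 50.3 and 68.9 CPM, and at 1x 98.7, 113 and 86.9 CPM. The 4 groups lay in the order SD, then the treated livers, then MASLD, with no overlap between MASLD and any other group. The diet value was 13.3-fold lower (log2 fold change -3.73, SE 0.30, adjusted p = 1.03e-06), and it rose at 0.1x (1.29, SE 0.28, adjusted p = 0.0135) and at 1x (1.58, SE 0.28, adjusted p = 0.00905) against the same MASLD livers. Both dose calls were lost without MASLD sample 3 (1.20, adjusted p = 0.0535 and 1.49, adjusted p = 0.0592) or MASLD sample 4 (1.14, adjusted p = 0.0601 and 1.43, adjusted p = 0.0612). The 0.1x call was also lost once the libraries' trends with GC content and transcript length were removed (1.00, adjusted p = 0.0769).

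Cyp2c29, the most abundant 2c gene, was 1849, 2343 and 2345 CPM in SD, 515, 481 and 615 CPM in MASLD, 954, 512 and 653 CPM at 0.1x and 738, 914 and 643 CPM at 1x. It fell 4.06-fold on the diet (log2 fold change -2.02, SE 0.21, adjusted p = 8.68e-06), and its dose values against MASLD did not pass (0.40, SE 0.20, adjusted p = 0.199 and 0.51, SE 0.20, adjusted p = 0.203). Cyp2c23, which makes epoxides of arachidonic acid, was 611, 613 and 551 CPM in SD, 90.8, 103 and 111 CPM in MASLD, 231, 97.7 and 135.5 CPM at 0.1x and 126, 138 and 179.6 CPM at 1x. It fell 5.81-fold (log2 fold change -2.54, SE 0.24, adjusted p = 4.21e-06), and no SD liver overlapped with any other. The abundant Cyp2c37, Cyp2c50 and Cyp2c70, the last known for hydroxylating bile acids to muricholic acids in rodents, fell 3.11-fold, 3.92-fold and 3.71-fold. Cyp2c68 fell 2.54-fold and Cyp2c67 1.46-fold, and both were called higher at 0.1x than in MASLD (0.60, SE 0.17, adjusted p = 0.0322 and 0.55, SE 0.15, adjusted p = 0.0286).

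Cyp2c67 was 350.2, 313 and 305 CPM in SD, 211, 225 and 229 CPM in MASLD, 419.8, 259 and 296 CPM at 0.1x and 269, 306 and 297 CPM at 1x. The MASLD livers lay below all others, and the 0.1x livers lay on both sides of the SD range. The 0.1x calls of Cyp2c67 and Cyp2c68 were lost with the trends removed (0.26, adjusted p = 0.447 and 0.31, adjusted p = 0.378). They were also lost without any 1 of MASLD samples 3 (0.52, adjusted p = 0.0972 and 0.58, adjusted p = 0.099), 4 (0.57, adjusted p = 0.0818 and 0.56, adjusted p = 0.115) or 5 (0.58, adjusted p = 0.0744 and 0.69, adjusted p = 0.0629), or without 0.1x sample 1 (0.33, adjusted p = 0.0956 and 0.51, adjusted p = 0.0931). The call of Cyp2c68 was lost without 0.1x sample 4 too (0.54, adjusted p = 0.0787). The diet call of Cyp2c67 was lost without MASLD sample 3 (-0.51, adjusted p = 0.0569) and with the trends removed (-0.40, adjusted p = 0.101).

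Cyp2c38 and Cyp2c39 went the other way from the other tested members of the subfamily. Cyp2c38, which oxidizes arachidonic acid, was 33.0, 67.2 and 70.01 CPM in SD, 133, 120.5 and 114 CPM in MASLD, 161, 118 and 166 CPM at 0.1x and 99.7, 107 and 99.1 CPM at 1x. All livers of the MASLD diet exceeded all SD livers. It rose on the diet (log2 fold change 1.11, SE 0.22, adjusted p = 0.00155), and against SD it was higher at 0.1x (1.38, SE 0.22, adjusted p = 0.000496) and 1x (0.85, SE 0.21, adjusted p = 0.0125). As a share of the counts of Cyp2c38 plus Cyp2c29, Cyp2c38 was 2.48% ± 0.631 in SD livers, 18.8% ± 2.66 in MASLD livers, 17.8% ± 3.04 with 0.1x and 11.9% ± 1.42 with 1x (n = 3 each). Cyp2c39, which hydroxylates retinoic acid, was 0.955, 1.52 and 1.396 CPM in SD, 2.696, 2.36 and 2.38 CPM in MASLD, 1.395, 1.60 and 2.29 CPM at 0.1x and 1.98, 2.28 and 1.27 CPM at 1x. It rose by 0.94 (SE 0.28, adjusted p = 0.0218), a call lost without SD sample 3 (0.76, adjusted p = 0.0738), MASLD sample 3 (0.87, adjusted p = 0.0706) or MASLD sample 4 (0.97, adjusted p = 0.0506).

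The low members Cyp2c40, Cyp2c55 and Cyp2c69 fell by 2.20, 1.74 and 2.76 on the log2 scale. Cyp2c40 and Cyp2c69 share more sequence with relatives than any other member: 29.1% and 22.5% of the 150-base windows of their transcripts occur in other genes. The corresponding shares were 13.0% for Cyp2c67, 8.83% for Cyp2c68, 6.404% for Cyp2d10 and lower for every other member. How the authors' counting treated reads from such windows is not stated, so the values of these genes are uncertain, and the effect on the subfamily sum was not tested. The call of Cyp2c40 was lost without SD sample 3 (-1.38, adjusted p = 0.0865) or MASLD sample 4 (-1.85, adjusted p = 0.0681).

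The stretches upstream of Cyp2c67 (chr19:39649052-39649292, - strand) and Cyp2c70 (chr19:40187334-40187536, - strand, both RefSeq, GRCm38.p6, written 5′ to 3′ on the gene's strand and ending where the annotated gene begins) are shown for a motif that recurs in the subfamily. Capitals mark CAAAGTCCA, a core sequence bound by the hepatocyte factor HNF4A.
Cyp2c67: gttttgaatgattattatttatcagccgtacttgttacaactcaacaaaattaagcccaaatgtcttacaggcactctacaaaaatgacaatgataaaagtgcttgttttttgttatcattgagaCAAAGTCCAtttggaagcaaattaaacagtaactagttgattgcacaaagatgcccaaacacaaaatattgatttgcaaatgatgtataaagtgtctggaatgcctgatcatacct
Cyp2c70: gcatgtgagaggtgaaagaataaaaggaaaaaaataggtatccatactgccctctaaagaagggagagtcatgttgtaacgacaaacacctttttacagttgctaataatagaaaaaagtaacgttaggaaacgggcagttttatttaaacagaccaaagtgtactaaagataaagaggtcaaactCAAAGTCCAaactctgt

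RefSeq promoter windows were matched for 49 members, 36 of them tested. For each member only the window nearest the annotated gene start was kept. The set of all windows was not reduced in this way and can hold several windows of a gene. CAAAGTCCA, on either strand, occurred within the 250 upstream bases of 8 (16.3%), against 0.4% of all 32851 windows: Cyp2c40, Cyp2c65, Cyp2c67, Cyp2c68, Cyp2c69, Cyp2c70, Cyp3a11 and Cyp3a16. Several of these genes are close paralogs that share upstream sequence, so they are not independent instances. TATAAA on the gene's strand occurred in 34.7% of the members' windows and 7.6% of all. The half-site AGGTCA of nuclear receptors, on either strand, occurred in 28.6% and 14.0%, and the AHR core GCGTG, on either strand, in 16.3% and 28.2%. The motifs were counted separately, and none is contained in another. The AHR core itself holds a CpG. The members' windows held a median of 2 CpG dinucleotides against 6 over all windows, and 93.9% of them held 5 or fewer, against 49.6% of all. The highest counts were 16 for Cyp2r1, 15 for Cyp2s1 and 12 for Cyp1b1. For Cyp1a1 and Cyp2c29 the RefSeq start used lies 9685 and 17680 bases from the GENCODE gene start. These matches describe the windows, and no binding or methylation was measured here.

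In subfamily 2d, which oxidizes many basic drugs, 4 of 5 tested members fell on the diet. Cyp2d26, the most abundant, was 1290, 1724 and 1625 CPM in SD, 851, 718 and 912 CPM in MASLD, 959, 790.1 and 1062 CPM at 0.1x and 786, 934 and 1017 CPM at 1x. It fell 1.87-fold (log2 fold change -0.90, SE 0.16, adjusted p = 0.000651), and Cyp2d10 and Cyp2d22 fell 2.04-fold each. Cyp2d40 was 90.1, 101 and 91.04 CPM in SD, 69.7, 60.4 and 85.2 CPM in MASLD, 89.2, 109 and 106 CPM at 0.1x and 98.3, 109 and 102 CPM at 1x. The MASLD livers lay below all others. It fell by 0.39 on the log2 scale (SE 0.13, adjusted p = 0.0333) and rose at 0.1x (0.50, SE 0.13, adjusted p = 0.0241) and 1x (0.52, SE 0.13, adjusted p = 0.04). Each of these 3 calls was lost without MASLD sample 3 (-0.37, 0.48 and 0.51, adjusted p = 0.101, 0.0829 and 0.17) or MASLD sample 4 (-0.28, 0.39 and 0.42, adjusted p = 0.162, 0.109 and 0.228). The diet call was also lost without SD sample 4 (-0.34, adjusted p = 0.109) or 5 (-0.42, adjusted p = 0.062), and the 0.1x call without 0.1x sample 3 (0.44, adjusted p = 0.0572) or 4 (0.47, adjusted p = 0.0545). The 1x call was lost without 1x sample 2 (0.56, adjusted p = 0.0868), 4 (0.49, adjusted p = 0.131) or 5 (0.53, adjusted p = 0.0984). With the trends removed, the diet and 0.1x values were -0.29 (adjusted p = 0.093) and 0.33 (adjusted p = 0.154).

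Cyp2e1 (ENSMUSG00000025479, mm10 chr7:140763739-140774987) was 8472, 11420 and 12520 CPM in SD and 8191, 7017 and 7702 CPM in MASLD. It was 10220, 8736 and 9806 CPM at 0.1x, and at 1x 7870, 10430 and 12110 CPM. SD and MASLD did not overlap, but SD sample 3 lay close to MASLD sample 3. The diet value was -0.50 (SE 0.18, adjusted p = 0.0498), at the threshold, and it kept its call in 7 of 16 alternatives. Without SD sample 4 it was -0.46 (adjusted p = 0.13), without SD sample 5 -0.38 (adjusted p = 0.19), and without MASLD sample 3, 4 or 5 -0.56, -0.45 and -0.51 (adjusted p = 0.0807, 0.145 and 0.099). With the trends removed it was -0.39 (adjusted p = 0.113), with upper-quartile factors -0.49 (adjusted p = 0.0573) and among genes of at least 1 CPM -0.48 (adjusted p = 0.0608).

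Cyp2f2, an airway and liver enzyme that oxidizes naphthalene and is periportal in liver, was 2385, 1620 and 1108 CPM in SD, 714, 627 and 965 CPM in MASLD, 1273, 569.5 and 947 CPM at 0.1x and 754, 739.5 and 830.2 CPM at 1x. It fell 2.22-fold on the diet (log2 fold change -1.15, SE 0.28, adjusted p = 0.00689), with no overlap between the groups. Cyp2g1, best known from olfactory mucosa, was scarce: 1.501, 1.55 and 1.02 CPM in SD, 0.167, 0.385 and 0.212 CPM in MASLD, 1.36, 0.616 and 0.721 CPM at 0.1x, and 0.82, 1.30 and 0.978 CPM at 1x. The MASLD livers, with 29 counts in all, lay below every other liver. Cyp2g1 fell on the diet (log2 fold change -2.39, SE 0.43, adjusted p = 0.000847) and rose at 0.1x (1.80, SE 0.44, adjusted p = 0.0192) and 1x (1.99, SE 0.43, adjusted p = 0.023). Both dose calls were lost without MASLD sample 3 (1.58, adjusted p = 0.071 and 1.77, adjusted p = 0.119) or 5 (1.69, adjusted p = 0.0702 and 1.88, adjusted p = 0.0618). The 0.1x call was also lost without 0.1x sample 1 (1.37, adjusted p = 0.0661) and with the trends removed (1.63, adjusted p = 0.0558), and the 1x call without 1x sample 4 (1.81, adjusted p = 0.0858) or 5 (2.03, adjusted p = 0.0516).

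Subfamily 2j, which makes fatty acid epoxides, had 3 tested members. Cyp2j5 was 618, 714 and 676 CPM in SD, 557, 537 and 622 CPM in MASLD, 629, 585 and 579 CPM at 0.1x and 535, 620.3 and 540.5 CPM at 1x, with overlapping groups and a diet value of -0.23 (SE 0.11, adjusted p = 0.145). The diet values of Cyp2j6 and Cyp2j9 were -0.26 (SE 0.12, adjusted p = 0.122) and -0.14 (SE 0.34, adjusted p = 0.785). Cyp2j6 was lower than SD at 0.1x (-0.45, SE 0.12, adjusted p = 0.0184) and 1x (-0.63, SE 0.12, adjusted p = 0.00267). Cyp2r1, a vitamin D 25-hydroxylase, fell 1.41-fold on the diet from 8.96 to 11.5 CPM to 7.34 to 7.56 CPM (adjusted p = 0.0227). That call was lost without SD sample 3 (-0.46, adjusted p = 0.0579), SD sample 5 (-0.43, adjusted p = 0.0901), MASLD sample 3 (-0.51, adjusted p = 0.0589), MASLD sample 4 (-0.51, adjusted p = 0.0634) or MASLD sample 5 (-0.48, adjusted p = 0.0626). Cyp2s1 and Cyp2u1 passed in no comparison.

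Subfamily 3a was led by Cyp3a11 (ENSMUSG00000056035, mm10 chr5:145854426-145879964), at 2824, 5300 and 4265 CPM in SD and 3429, 3816 and 2601 CPM in MASLD. It was 4389, 3815 and 3196 CPM at 0.1x, and at 1x 2107, 3433 and 2124 CPM. All groups overlapped and it passed in no comparison (MASLD against SD -0.33, SE 0.24, adjusted p = 0.319). Cyp3a25 was 441, 707 and 731 CPM in SD, 333, 316 and 335 CPM in MASLD, 447, 426 and 427 CPM at 0.1x and 324, 353 and 348 CPM at 1x, and fell 1.91-fold on the diet (log2 fold change -0.93, SE 0.15, adjusted p = 0.000443). Cyp3a13, a 3a enzyme also expressed in intestine, was 128, 178 and 179.5 CPM in SD, 108, 104 and 118 CPM in MASLD, 147, 119 and 151 CPM at 0.1x and 209.5, 182 and 168 CPM at 1x. It fell on the diet (-0.56, SE 0.14, adjusted p = 0.00946), and at 1x all livers lay above all MASLD and 0.1x livers. It rose at 1x against MASLD (0.76, SE 0.14, adjusted p = 0.0123), a call lost without MASLD sample 3 (0.75, adjusted p = 0.066), MASLD sample 4 (0.73, adjusted p = 0.0848) or 1x sample 2 (0.67, adjusted p = 0.0591). Cyp3a59 passed in no comparison.

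When counts were summed within subfamilies, 7 of 14 tested sums fell on the diet: 1a, 2c, 2d, 2e, 2f, 2g and 2r. Subfamilies 2e, 2f, 2g and 2r hold 1 member each, so their sums repeat the calls of Cyp2e1, Cyp2f2, Cyp2g1 and Cyp2r1. In the fit of single genes 13.9% of all genes were called lower on the diet. The 2a sum was 1389, 2115 and 2086 CPM in SD and 1623, 1496 and 1302 CPM in MASLD and did not pass (-0.34, SE 0.19, adjusted p = 0.201), although Cyp2a4 within it rose. The 3a sum, 4942 ± 1424 CPM in SD and 3744 ± 607 CPM in MASLD (n = 3 each), did not pass on the diet (-0.40, SE 0.22, adjusted p = 0.185) and was lower than SD at 1x (-0.67, SE 0.22, adjusted p = 0.0438). The 2d sum, without the gene left out, fell by 0.95 on the log2 scale (SE 0.15, adjusted p = 0.000368). Over all members the sum was 30670 ± 4015 CPM with SD, 18130 ± 739 CPM with MASLD, 22180 ± 2273 CPM with 0.1x and 21000 ± 2983 CPM with 1x (n = 3 each). These sums carry the TMM scaling, while the shares of counts given above do not. The TMM factors were 0.852 to 0.866 in SD, 1.075 to 1.151 in MASLD, 0.960 to 1.075 at 0.1x and 1.01 to 1.137 at 1x. The size of the diet values, the small ones above all, therefore depends on this scaling.

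**Figure D3:**
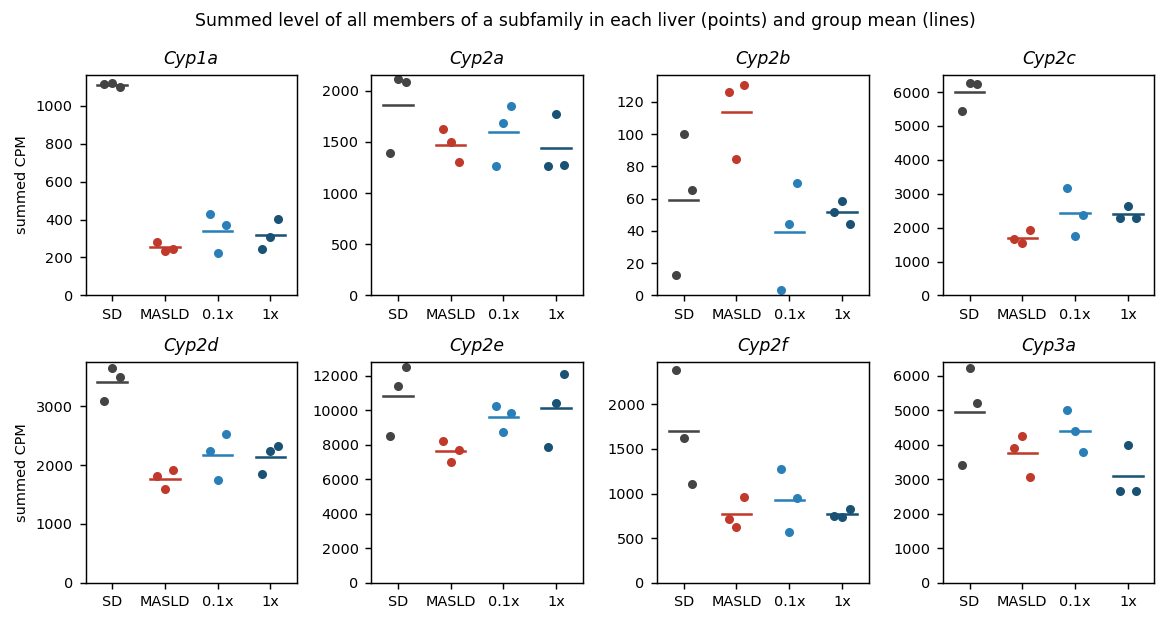
Summed CPM (vertical linear axis from 0) of all members of 8 subfamilies in each liver, with points for libraries and lines for group means. The 2c sum drops from 5987 CPM in SD to 1709 CPM in MASLD on average, while the 2a and 3a sums overlap between the groups.

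Few members were called with Aza-TdC on the MASLD diet. At 0.1x against MASLD, 5 of 41 were higher and 1 was lower (14.6%), while 13.2% of all genes tested were called, 6.08% higher and 7.09% lower. At 1x against the same MASLD livers 4 were higher and 0 lower with edgeR (9.76%), while 3.11% of all genes were called, 1.49% higher and 1.62% lower. At an unadjusted p under 0.05 in edgeR, 15 members were higher and 1 lower at 0.1x, and 14 higher and 6 lower at 1x. No count over all genes was made at that threshold. DESeq2 called 6 members in all at 1x. Over all 13866 genes DESeq2 called 825 at 1x. The share at 0.1x was thus near that of all genes. The members that rose at 0.1x were Cyp2c54, Cyp2c67, Cyp2c68, Cyp2d40 and Cyp2g1, and the member that fell was Cyp2b10. Those that rose at 1x were Cyp2c54, Cyp2d40, Cyp2g1 and Cyp3a13. The median log2 fold change of the members was 0.33 at 0.1x and 0.14 at 1x, against -0.02 and -0.00482 over all genes. The 20 hepatocyte markers had medians of 0.33 at 0.1x and 0.20 at 1x.

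The count at 0.1x changed when single libraries were left out, and so did the count over all genes. For members it was 1 without MASLD sample 3, 2 without MASLD sample 4, MASLD sample 5 or 0.1x sample 1, and 12 (11 higher) without 0.1x sample 3. Over all genes 1826 of 13866 were called with all libraries. That count was 594 of 14213 without MASLD sample 3, 382 of 14140 without MASLD sample 4 and 461 of 14205 without MASLD sample 5. Without 0.1x sample 1 or 3 it was 1145 of 14186 or 1238 of 14177. In 0.1x sample 3 a smooth trend with GC content and transcript length accounted for 22.3% of the deviation from the mean over libraries, and in 1x sample 2 for 18.7%, the highest shares of the 12 libraries. With these trends removed from all libraries, 1 member was called at 0.1x, Cyp2b10, and 5 at 1x. Over all 13866 genes 506 and 605 were then called. The count of members at 1x was 0 without MASLD sample 3 (14 members at an unadjusted p under 0.05), 1 without MASLD sample 4, and 2 without 1x sample 2, 4 or 5. It was 9 (4 higher, 5 lower) without SD sample 3 and 0.1x sample 1 together. Over all genes 431 were called at 1x with all libraries, 102 without MASLD sample 3 and 83 without MASLD sample 4. That count was 148, 154 and 216 without 1x sample 2, 4 and 5, and 581 without that pair of livers.

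**Figure D4:**
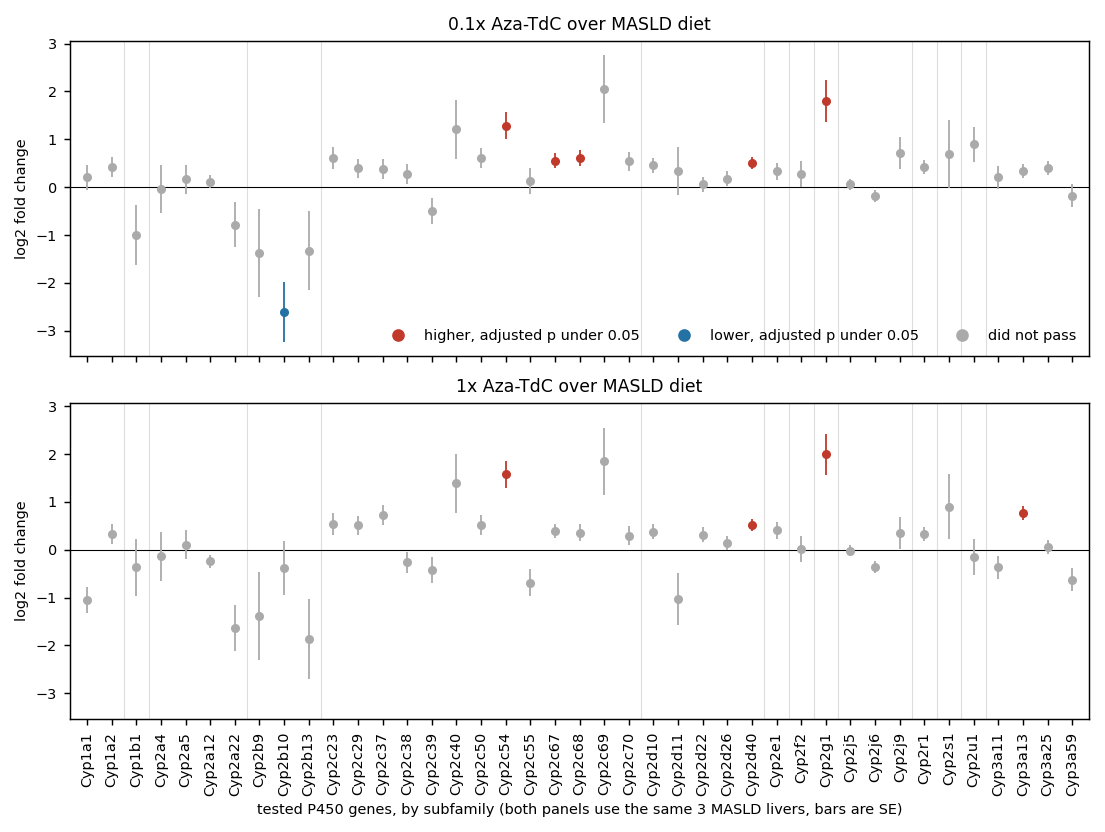
Log2 fold change against the untreated MASLD livers for each tested member at 0.1x (upper panel) and 1x (lower panel), with SE bars; both panels use the same 3 MASLD libraries. Coloured points passed the test, 5 higher and 1 lower at 0.1x and 4 higher at 1x; Cyp2b10 is the lower one, at -2.61.

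Between the doses 1 member was higher at 1x, Cyp2b10, and 1 was lower, Cyp1a1 (4.88% of 41), while 13.0% of all genes were called, 7.13% higher and 5.86% lower. The median of the members was -0.09, against -0.01 over all genes. No subfamily sum passed with edgeR, with 2 at an unadjusted p under 0.05, and DESeq2 called 0. The count of members was 1 without 0.1x sample 1, 1x sample 2 or 1x sample 5, 3 without 0.1x sample 3 and 4 without 1x sample 4. It was 6 without SD sample 3 and 0.1x sample 1 together and 0 (7 at an unadjusted p under 0.05) without 0.1x sample 3 and 1x sample 2 together. Over all genes 1802 were called with all libraries, 1135 without 0.1x sample 1, 210 without 1x sample 2 and 782 without 1x sample 5. That count was 1343 without 0.1x sample 3, 1844 without 1x sample 4, and 1378 and 260 without those pairs.

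Against SD, livers with either dose still differed in many members. At 0.1x 17 were lower and 2 higher (46.3%), while 20.7% of all genes were called, 10.9% lower and 9.85% higher. At 1x 17 were lower and 2 higher (46.3%), while 19.8% of all genes were called, 9.84% lower and 9.91% higher. Cyp2a4 and Cyp2c38 were the higher members in both. Of the 23 members that fell on the diet alone, 15 were lower than SD at 0.1x and 15 at 1x, and 8 did not pass in each. All of these comparisons share the SD or MASLD livers.

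Regulators of the P450 genes were read from a list of 20, of which 19 were tested. On the diet 1 rose and 3 fell: the CAR gene Nr1i3 (log2 fold change -0.81, SE 0.25, adjusted p = 0.0237), Hnf4a (-0.65, SE 0.14, adjusted p = 0.00336) and Foxa2 (-0.92, SE 0.25, adjusted p = 0.0124) fell, and Nfe2l2, which encodes the oxidative stress factor NRF2, rose by 0.32 (SE 0.11, adjusted p = 0.0353). The PXR gene Nr1i2 passed in none of the 6 comparisons, and Ahr passed at 1x against SD alone (0.68, SE 0.17, adjusted p = 0.0103). At 0.1x against MASLD 4 fell, Arnt, the partner of AHR, among them (-0.58, SE 0.12, adjusted p = 0.0133). Between the doses 5 were higher at 1x, with Arnt at 0.73 (SE 0.12, adjusted p = 0.00574). Arnt was 21.9, 26.1 and 25.1 CPM in MASLD, 16.6, 15.6 and 16.5 CPM at 0.1x and 31.5, 23.7 and 25.9 CPM at 1x, with the 0.1x livers below all others.

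Of 16 genes for electron supply and heme synthesis, 3 rose and 4 fell on the diet. Cyb5a, the cytochrome b5 that passes electrons to P450 enzymes, fell (-0.76, SE 0.18, adjusted p = 0.00517). Por, the P450 oxidoreductase, was 588, 487 and 687 CPM in MASLD, 478, 423 and 705 CPM at 0.1x and 929, 965 and 1190 CPM at 1x. It rose at 1x against MASLD (0.81, SE 0.20, adjusted p = 0.0389) and was higher at 1x than at 0.1x (0.94, SE 0.20, adjusted p = 0.0117). All 1x livers lay above all MASLD and 0.1x livers.

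Of 37 tested conjugation enzymes, 6 rose and 15 fell on the diet, 2 rose and 1 fell at 0.1x against MASLD, and 2 rose and 4 fell at 1x. The glutathione transferase Gstm3 rose on the diet (1.08, SE 0.20, adjusted p = 0.00115) and fell at 0.1x (-0.94, SE 0.20, adjusted p = 0.0133) and 1x (-1.99, SE 0.21, adjusted p = 0.000212). Of 28 other oxidation and hydrolysis enzymes, 8 rose and 13 fell on the diet, among them the carboxylesterase Ces2a (-2.03, SE 0.15, adjusted p = 5.91e-07), which rose at 0.1x (0.80, SE 0.15, adjusted p = 0.0101) and 1x (0.81, SE 0.15, adjusted p = 0.0113). Of 15 drug transporters 5 rose and 6 fell, and the efflux pump Abcc4 was among those that rose (3.06, SE 0.21, adjusted p = 1.9e-07). Targets of CAR and PXR outside the P450 families went both ways on the diet, 8 of 22 higher and 5 lower, and at 0.1x 1 was higher and 4 lower. Of 8 tested AHR targets outside the P450 families 3 rose and 1 fell on the diet. Lists of this kind overlap: Abcc4 and Ces2a, for example, stand on 2 of them.

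Of the 10 members taken as pericentral, 8 fell on the diet, all but Cyp2a5 and Cyp3a11, with a median of -1.33. Each of them had a mean of at least 100 CPM, and of all 22 members at that level 17 fell. Over all tested members 23 of 41 fell, and over all genes 13.9% were called lower and 15.6% higher. Of 15 other pericentral genes 6 fell and 1 rose, with a median of -0.16; Glul, glutamine synthetase of the innermost layer, was the one that rose (0.43, adjusted p = 0.012). Of 8 tested members taken as female-biased, 3 rose (Cyp2a4, Cyp2c38 and Cyp2c39) and 2 fell (Cyp2c40 and Cyp2c69) on the diet. Summed over the female-biased members, SD sample 3 had 62.6 CPM while SD samples 4 and 5 had 176 and 146 CPM. The sum in 0.1x sample 1 was 217 CPM, and 0.1x samples 3 and 4 had 352 and 512 CPM. These are the same 2 livers in which Cyp2b9 and Cyp2b13 were lowest in their groups. The abundant members of the list, Cyp2a4, Cyp2c38, Cyp2b9 and Cyp2b10, make up most of this sum, and not every member followed it. Cyp2c40 was highest in SD in sample 3, at 10.9 CPM, with 2.501 and 4.01 CPM in samples 4 and 5. Cyp2c69 was also highest in SD sample 3 (4.57, 2.75 and 1.48 CPM in samples 3, 4 and 5) and in 0.1x sample 1 (2.73, 0.277 and 2.39 CPM in samples 1, 3 and 4). Cyp2c38 was 161 CPM in 0.1x sample 1, between the 118 and 166 CPM of samples 3 and 4.

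As a description over the 12 libraries on the scale of log2 of CPM plus 1, the members whose levels followed Cyp1a2 most closely were Cyp2c23, Cyp2c50 and Cyp2d22 (Pearson r 0.98, 0.97 and 0.95), all of which fell on the diet. For Cyp3a11 they were Cyp3a59, Cyp3a25 and Cyp2j5 (0.73, 0.67 and 0.66), and for Cyp2b10 Cyp2d22, Cyp2c37 and Cyp2d26 (0.51, 0.51 and 0.50). The libraries share their group structure, so these values carry no test. Of the 41 tested members, 30 were called in at least 1 of the 6 comparisons and 11 in none. No such count was made over all genes, of which 29.5% were called between MASLD and SD alone.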

How the data were processed

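RNA from 12 livers was sequenced in read pairs of 150 bases from stranded polyadenylated RNA libraries, per the labels' protocols, and aligned with STAR 2.7.3a to mm10, per the submitters' processing notes. For the counting tool, its strand setting and its treatment of shared reads, nothing is stated in those notes. The values are raw counts per gene in 1 table that the authors deposited, with 0 columns outside the samples. One library named 8 belongs to the sample titled 1x sample 5, and the title was followed. GENCODE release M21 (GRCm38) matched 55230 identifiers, and the other 241 held 0.00328% of counts.

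Genes passing filterByExpr were fitted with edgeR 4.0.16 (R 4.3.3, TMM, glmQLFit and glmQLFTest, two-sided) over all 12 libraries with 1 coefficient per group. Reported CPM are TMM-scaled, and ± is the standard deviation over 3 samples. DESeq2 1.42.0, other scalings and filters, a replicate block and left-out libraries were alternatives, and the GC and length trend was fitted with mgcv 1.9.3. No 2 replicates were identical: over 12 pairs the chi-square per degree of freedom was at least 16.4. Depth per library was 30213048 to 41852606 counts. Sequence shared with relatives was counted in 150-base windows of transcripts, and promoters came from RefSeq windows of 250 upstream bases.

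The members and lists were chosen with earlier results of these data known. Alternatives that left out 2 libraries together were chosen after seeing the data. Values per library are given for 15 set members, up to 4 called members per direction and comparison with the smallest adjusted p, and the most abundant member of each subfamily with 2 or more tested members; Cyp2c68 and other members are given where a count of calls of 5 or fewer names them. From the other lists, up to 3 called genes per comparison with the smallest adjusted p could be named, besides Ahr, Nr1i2, Nr1i3 and Por. One gene of subfamily 2d is not reported here.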

Additional observations from a re-analysis of the deposited data

Results flagged for a closer look

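The test of the difference between the doses passed for 2 members. Cyp2b10 was higher at 1x than at 0.1x by 2.22 on the log2 scale (SE 0.62, edgeR adjusted p = 0.0324), with all 3 livers at 1x above all 3 at 0.1x. Cyp1a1 was lower at 1x than at 0.1x, with a log2 fold change of -1.25 (SE 0.27, adjusted p = 0.0135) and all 3 livers at 1x below all 3 at 0.1x. Over 16 alternatives the adjusted p ranged from 1.45e-28 to 0.482 for Cyp2b10, which kept its call in 10, and from 0.00088 to 0.194 for Cyp1a1, which kept its call in 14. Cyp2b10 was lowest in 0.1x sample 1, the liver in which Cyp2b9 was also lowest at that dose, and the part of that liver's other differences in the result was not tested.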

How the results depend on the processing

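For 24 named members, 1401 of 1528 values under alternatives kept their side of the threshold, and 74 lost and 53 gained a call. Direction was compared only where the main value or the alternative was called, and none of these reversed. The alternatives below gave these counts of members called. The cause was not tested. Without a filter, edgeR gave far smaller adjusted p at nearly the same fold change for some members. On the diet Cyp2b9 was 1.87 without a filter (adjusted p = 4.91e-20) and 1.86 with it (adjusted p = 0.15). At 0.1x against MASLD (6) the count was 12 with DESeq2, 16 without a filter, 1 with the GC and length trend removed, 12 without 0.1x sample 3 and 1x sample 2, 3 at 2-fold or more, and 0 at an adjusted p under 0.01. Over all genes (1826) it was 2540 with DESeq2, 2446 of 22984 without a filter, 506 with the trend removed and 1595 without that pair of livers. At 1x against MASLD (4) the count of members was 15 without a filter, 14 with only the 2 groups fitted, 9 without SD sample 3 and 0.1x sample 1, 2 at 2-fold or more, and 1 at 0.01. Over all genes (431) it was 1131 without a filter, 1013 with only the 2 groups fitted and 581 without that pair of livers. Between doses (2) the count of members was 5 with DESeq2, 9 without a filter, 6 and 0 without those pairs of livers (SD 3 with 0.1x 1, and 0.1x 3 with 1x 2), and 0 at 0.01. Over all genes (1802) it was 2464 with DESeq2, 2487 without a filter, and 1378 and 260 without those pairs. Against SD (19 at each dose) the count of members was 11 at 0.1x and 10 at 1x at 2-fold or more. No count over all genes was made at 2-fold or more or at 0.01.

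With edgeR and the replicate number as a block, 0 members were called at 0.1x (11 at an unadjusted p under 0.05), 1 at 1x and 0 between doses (3 unadjusted); subfamily sums gave 0 (2 unadjusted) and 0 (4 unadjusted). With this block 33 of 13866 genes were called at 0.1x, 53 at 1x and 0 between doses. Number 1 occurs only at 0.1x and number 2 only at 1x. The block therefore in effect takes 0.1x sample 1 and 1x sample 2 out of the group contrasts. The labels do not say whether the numbers pair the samples. Correlations of same-numbered deviations were -0.215 to 0.0757 over 12 pairs, with the library named 8 taken as number 5.

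Subfamily sums at 0.1x (1) gave 3 with DESeq2, 4 without a filter, 0 at a mean of 1 CPM or more and 0 with the trend removed (3 unadjusted in each). At 1x (1) they gave 3 without a filter, 0 at 1 CPM (1 unadjusted) and 3 with only the 2 groups. Between doses (0, 2 unadjusted) they gave 3 without a filter. The sum called at 0.1x and at 1x was 2g, which holds Cyp2g1 alone, at a mean of 0.886 CPM. The filter at 1 CPM left 11 of 14 sums and took out 2g, so 2g was not tested there.

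Leaving out 1 library gave 22 to 26 members for the diet (27), 1 to 12 at 0.1x, 0 to 3 at 1x, 1 to 4 between doses, 15 to 20 and 18 to 21 against SD, and 5 to 7, 0 to 4, 0 to 1 and 0 to 1 sums. Over all genes these fits called 2654 to 3850 genes for the diet, 382 to 1599 at 0.1x and 83 to 396 at 1x. Between doses they called 210 to 1844 genes, and against SD 1790 to 2619 at 0.1x and 1699 to 2559 at 1x. A lone group of 2 livers was assumed to vary like the others. Low counts limit Cyp1a1, Cyp2g1, Cyp2b13 and Cyp2c69.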
